A study of Mus musculus with 10 samples.

Results

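Small nucleolar RNAs (snoRNAs) and small Cajal body RNAs (scaRNAs) were measured in mouse lung as 150 of the 66548 rows of the deposited expression table. Members were all rows whose symbol began with Snora, Snord or Scarna and a number, kept as single rows: 37 box H/ACA rows (Snora), 104 box C/D rows (Snord) and 9 Cajal body rows (Scarna), from 119 symbols. Lungs of female BALB/c animals fell into 3 groups. The Saline controls (n = 3) received injections of saline alone. OVA mice (n = 3) were sensitised to ovalbumin with alum by intraperitoneal injection, then challenged with it through the nose, as a model of allergic asthma. Herb mice (n = 4) had the same ovalbumin regimen plus DSE, an extract of Descurainia sophia seed, by mouth. RNA was from whole lung, so fewer cells of a type and less RNA per cell cannot be told apart, and the labels do not state how libraries map to animals beyond their replicate numbers.

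Box C/D snoRNAs guide 2′-O-methylation of ribosomal RNA with the methyltransferase fibrillarin (Fbl). Box H/ACA snoRNAs guide pseudouridylation with dyskerin (Dkc1), and scaRNAs carry the same boxes but act on spliceosomal RNAs in the Cajal body. Most vertebrate snoRNAs are cut out of introns of a host gene and have no poly(A) tail, while both library kits named for these samples select polyadenylated RNA. The values therefore describe what such libraries captured and are not a census of mature snoRNA.

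The sequences below are those of some of the members named in the comparisons, from the GENCODE vM21 transcripts (GRCm38). Capitals mark, in box C/D RNAs, the C box (TGATGA in the first 25 bases) and the D box (CTGA in the last 12), and in box H/ACA RNAs, the first match of the H box (ANANNA in the middle part) and the ACA of the last 12 bases. Only the strand of the RNA was searched, and a match is a description of letters.
Snord17: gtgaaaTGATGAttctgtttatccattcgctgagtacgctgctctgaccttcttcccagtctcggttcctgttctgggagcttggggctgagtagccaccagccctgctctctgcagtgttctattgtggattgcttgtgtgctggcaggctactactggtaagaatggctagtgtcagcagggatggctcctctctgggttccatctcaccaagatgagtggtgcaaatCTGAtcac
Snord15a: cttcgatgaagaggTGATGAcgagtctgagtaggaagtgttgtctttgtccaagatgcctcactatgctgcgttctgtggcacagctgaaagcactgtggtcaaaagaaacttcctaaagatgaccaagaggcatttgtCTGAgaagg
Snord15b: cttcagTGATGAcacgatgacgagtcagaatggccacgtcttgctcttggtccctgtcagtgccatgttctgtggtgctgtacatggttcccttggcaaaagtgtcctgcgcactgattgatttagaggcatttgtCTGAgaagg
Snord118: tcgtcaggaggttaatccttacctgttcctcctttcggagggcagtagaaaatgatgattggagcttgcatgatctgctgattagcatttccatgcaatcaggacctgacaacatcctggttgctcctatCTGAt
Snord8: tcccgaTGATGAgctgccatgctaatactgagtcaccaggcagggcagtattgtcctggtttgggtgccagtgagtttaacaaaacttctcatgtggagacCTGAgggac
Snora61: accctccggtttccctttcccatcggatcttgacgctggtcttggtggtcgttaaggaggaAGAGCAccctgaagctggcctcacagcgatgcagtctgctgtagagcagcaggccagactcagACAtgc
Snora44: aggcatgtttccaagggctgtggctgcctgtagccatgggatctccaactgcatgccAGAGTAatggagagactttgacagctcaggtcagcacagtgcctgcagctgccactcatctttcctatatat
Snora34: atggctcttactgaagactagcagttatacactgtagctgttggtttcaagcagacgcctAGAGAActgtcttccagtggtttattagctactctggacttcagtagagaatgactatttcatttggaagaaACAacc
Snora70: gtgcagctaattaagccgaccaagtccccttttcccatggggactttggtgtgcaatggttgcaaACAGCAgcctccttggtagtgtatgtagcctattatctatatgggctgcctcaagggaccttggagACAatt
Snord17 is at chr2:144265979-144266216 (minus strand) in an intron of Snx5, a sorting nexin gene. Snord15a, at chr7:99482785-99482932 (minus strand), and Snord15b, at chr7:99479563-99479707 (minus strand), both lie in the ribosomal protein gene Rps3, and 65.6% of the 154 columns of their alignment were identical. Snord118 (U8), at chr11:69073427-69073561 (plus strand), is outside any annotated gene on its strand. Snord8 is at chr14:52209785-52209894 (minus strand) in an intron of Chd8. Snora61, at chr4:132310240-132310369 (plus strand), and Snora44, at chr4:132309941-132310069 (plus strand), share the noncoding host Snhg12. Snora34 is at chr15:98519716-98519853 (minus strand) in an intron of Kansl2, and Snora70 at chrX:74272484-74272620 (plus strand) in the ribosomal protein gene Rpl10.

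The motifs followed the class names. CTGA stood near the 3′ end of 60 of 72 Snord sequences and of 1 of 34 Snora sequences, and TGATGA near the 5′ end of 46 and 0. ACA stood near the 3′ end of 32 of 34 Snora sequences and of 7 of 72 Snord sequences. ANANNA, marked above as the H box, matched the middle part of 31 of 34 Snora sequences but also of 33 of 72 Snord sequences. The 9 scaRNAs were mixed, with CTGA in 5 and ACA in 5. Of 113 members with a single row and an annotated position, 107 lay inside a gene on their own strand and 6 did not. Snora43 and Snora16a matched 2 annotated entries each, and the first was used. These 107 members lay in 81 distinct hosts. Ribosomal protein genes held 31 of the members, and an annotated exon of the host overlapped 53. Reads of such members and of unspliced or alternatively spliced host RNA cannot be told apart in these values.

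A few long members held most of the signal. Values are FPKM, fragments normalised to transcript length and library depth, so that levels compare between genes per length. Snord17 had the highest level, a mean of 3010 FPKM over 10 libraries, and made up 29.3 to 40.0% of the summed FPKM of all members in Saline, 55.3 to 64.8% in OVA and 48.6 to 64.3% in Herb. All 8 members annotated at 150 bases or more averaged above 10 FPKM, against 10 of 45 from 100 to below 150 bases and 2 of 60 under 100 bases. These length limits were chosen after the values were seen. Lengths are those of GENCODE, and RefSeq gives some members a much shorter one, such as 61 against 414 bases for Scarna2 and 71 against 325 for Scarna10. Which length entered the deposited FPKM is not given in the sources used here, so the levels of such members per length are uncertain. Comparisons between groups use the same length in every library. For low members, such as Scarna9 (42 against 70 bases), it still enters through the 1 added before logs and the filter. Spearman's rho between length and mean FPKM was 0.47 across 113 members, a description over genes that share libraries and a fragment size selection. Within the classes rho was 0.23 for 35 Snora, 0.16 for 69 Snord and 0.75 for 9 Scarna members.

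**Figure D1:**
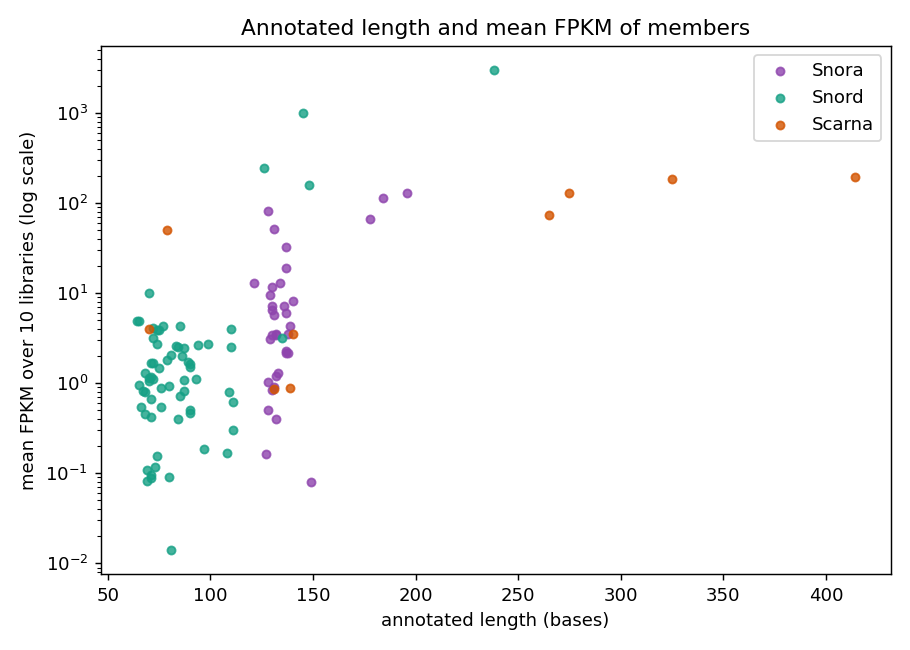
Annotated length in bases (x axis) against mean FPKM over the 10 libraries (y axis, log scale) for members above 0, coloured by class. The 8 members of 150 bases or more sit high, led by Snord17 at 3010 FPKM, while most members under 100 bases lie near or below 10.

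Many members were listed at 0 or lay near the limit of measurement. Of the 150 rows, 31 were listed at 0 in all 10 libraries: 28 of the 30 Snord116 rows, from the imprinted Prader-Willi cluster, and the 3 Snord14 (U14) rows. Fbl, which every cell uses, was also listed at 0 in the Saline libraries, in OVA replicate 2 and in Herb replicates 1 and 3. Whether a listed 0 is an absent RNA or a failed estimate was not tested. The other 2 Snord116 rows reached at most 0.0824 FPKM. In total 76 members (30 Snora, 39 Snord and 7 Scarna) had the mean of at least 1 FPKM needed for testing. Snora20, at a mean of 1.03 FPKM, was just inside this limit and Snord42a, at 0.949 FPKM, just outside. The depth estimated from the smallest steps in the values was about 14800000 to 29500000 fragments per library, so 1 FPKM of a 100-base RNA stood for 1.48 to 2.95 fragments, and the low members rest on few fragments.

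The libraries differed in composition along the group labels. Protein-coding rows held 18.5 to 21.3% of the summed FPKM in Saline, 3.36 to 4.68% in OVA and 8.44 to 13.6% in Herb. Rn45s, the ribosomal RNA precursor, had a mean of 1307 ± 95.8 FPKM in Saline (SD, n = 3), 11249 ± 1979 in OVA (n = 3) and 5465 ± 1707 in Herb (n = 4). Other noncoding RNAs did not rise with it. In the same order of groups, Rmrp had means of 23045 ± 6261, 19268 ± 4958 and 18393 ± 1030 FPKM. Malat1 had means of 1656 ± 1407, 67.2 ± 69.7 and 389 ± 309 FPKM. Markers of other cell types also moved with the groups. Erythroid markers summed to 2579 to 3206 FPKM in Saline, 1.66 to 285 in OVA and 325 to 756 in Herb, B and plasma cell markers to 9.69 to 18.4, 2.14 to 2.89 and 3.89 to 14.7, and macrophage markers to 87.4 to 190, 80.0 to 276 and 344 to 617. The macrophage sum was mostly Chil3, with means of 107, 156 and 470 FPKM in the same order of groups. Mrc1 (21.8, 15.7 and 25.4) and Marco (0.56, 0.34 and 0.61) were lowest in OVA. Eosinophil markers also differed in direction: Ear2 had means of 12.5, 2.11 and 4.82, Prg2 of 0, 1.26 and 0.96, and Epx of 0.0058, 0.056 and 0.032. The 6 lung markers were above 0 in every group, and their summed level was 16574 to 26121 FPKM in Saline, 2841 to 5447 in OVA and 8428 to 13488 in Herb, carried mostly by Scgb1a1 and Sftpc. Foxj1, the marker of ciliated cells among them, went the other way, with a mean of 4.56 ± 1.98 FPKM in Saline (SD, n = 3) and 12.9 ± 7.36 in OVA (n = 3). The part of this shift in the results on members was not tested. Counts are therefore given for the values as deposited and after scaling each library to its protein-coding sum, which moved the median of all rows in OVA against Saline from -0.59 to 0.37 on the log2 scale.

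Between OVA and Saline, more members were lower than higher in OVA at the deposited scale, and this order was turned by the protein-coding scale. At the deposited scale 3 of 76 members were higher and 29 lower in OVA (limma, adjusted p under 0.05 over all 30194 rows tested), against 3.02% higher and 41.1% lower of all rows. The share of members lower was 38.2%, near that of all rows. The median log2 fold change was -0.71 for members and -0.59 for all rows. By class, 1 Snora member was higher and 7 lower (median -0.49), 2 Snord higher and 18 lower (median -0.86), and 0 Scarna higher and 4 lower (median -1.54). At the protein-coding scale 23 members were higher and 6 lower, against 27.9% and 4.87% of all rows, with 11 Snora higher and 1 lower (median 0.81), 10 Snord higher and 3 lower (median 0.19) and 2 Scarna higher and 2 lower (median -0.02). Differences between the classes were not tested. The sign of the change differed between the scales for 35 of 76 members.

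**Figure D2:**
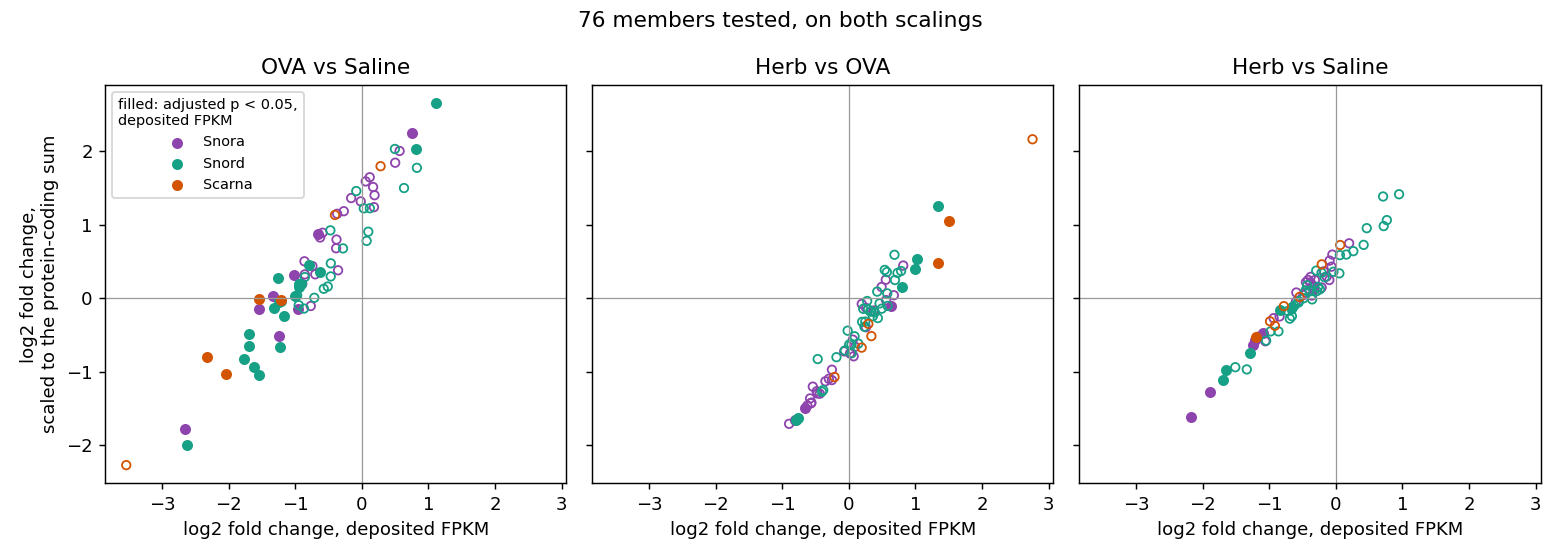
Log2 fold change of each tested member with the deposited FPKM (x axis) and after scaling to the protein-coding sum (y axis) for the 3 comparisons, coloured by class, filled where adjusted p was under 0.05 at the deposited scale. In OVA vs Saline the cloud lies above the diagonal, and 35 of 76 members change sign.

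In all, 9 members were called in the same direction at both scales in OVA against Saline: 3 higher and 6 lower. Snord17 read 1556, 1880 and 2205 FPKM in Saline, 4195, 3345 and 4661 in OVA, and 3033, 2609, 3690 and 2930 in Herb. Every OVA and Herb library was above every Saline library. It changed by 1.11 ± 0.23 on the log2 scale (standard error; limma adjusted p = 0.0041), and quantile normalization, at 0.21, ended the call, as did testing without a filter (adjusted p = 0.161). Snora70 read 19.9, 40.6 and 23.0 FPKM in Saline, 51.9, 46.5 and 38.6 in OVA, and 24.0 to 27.5 in Herb. Saline replicate 2 lay within the OVA range, the log2 change came to 0.75 ± 0.26 (limma adjusted p = 0.0408), and 11 of 20 alternatives lost the call. Snord37, in the elongation factor gene Eef2, read 2.26, 3.20 and 2.33 FPKM in Saline, 3.93, 4.56 and 7.91 in OVA and 4.10 to 9.13 in Herb. Its log2 fold change was 0.81 ± 0.29 (limma adjusted p = 0.0498), lost under 12 of 19 alternatives.

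The 6 members lower at both scales were Snora34, Snord8, Scarna9, Scarna10, Snord118 and Snord32a, and each was also lower and past the threshold under every alternative run for it. Snora34 read 6.78, 12.8 and 8.11 FPKM in Saline, and 0.54 and 1.49 in OVA with OVA replicate 3 listed at 0. The log2 change was -2.67 ± 0.43 (limma adjusted p = 0.0014). Snord8 read 6.60, 5.92 and 4.97 FPKM in Saline, and 0.29 and 0.023 in OVA replicates 1 and 3, with replicate 2 listed at 0. The log2 change was -2.63 ± 0.25 (limma adjusted p = 0.0004). These OVA levels stand for at most a few fragments, so the size of the fall depends on the pseudocount: it was -5.13 with a pseudocount of 0.1 and -0.65 with 10.

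Snord118, the U8 RNA needed for processing of ribosomal RNA, read 5.79, 5.24 and 5.44 FPKM in Saline, 0.92, 1.08 and 1.02 in OVA, and 3.06, 4.04, 2.44 and 2.97 in Herb. The groups did not overlap. Its log2 fold change in OVA was -1.69 ± 0.15 (limma adjusted p = 0.0004). In the OVA libraries 1 FPKM of a 100-base RNA stood for 2.03 to 2.95 fragments, so these OVA levels rest on few fragments. The closeness of the OVA values and the standard error are uncertain for that reason. Scarna10 was the most abundant of these 6, with 289, 428 and 269 FPKM in Saline, 43.8, 75.5 and 75.6 in OVA, and 153, 225, 135 and 145 in Herb. Again the groups did not overlap, and the log2 fold change was -2.33 ± 0.31 (limma adjusted p = 0.0006). Scarna9 read 8.23, 6.26 and 5.71 FPKM in Saline, 0.62, 1.00 and 0.97 in OVA, and 3.76, 5.34, 2.75 and 5.70 in Herb, a log2 fold change of -2.05 ± 0.24 in OVA (limma adjusted p = 0.0005). The OVA levels of Scarna9 rest on few fragments as well.

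**Figure D3:**
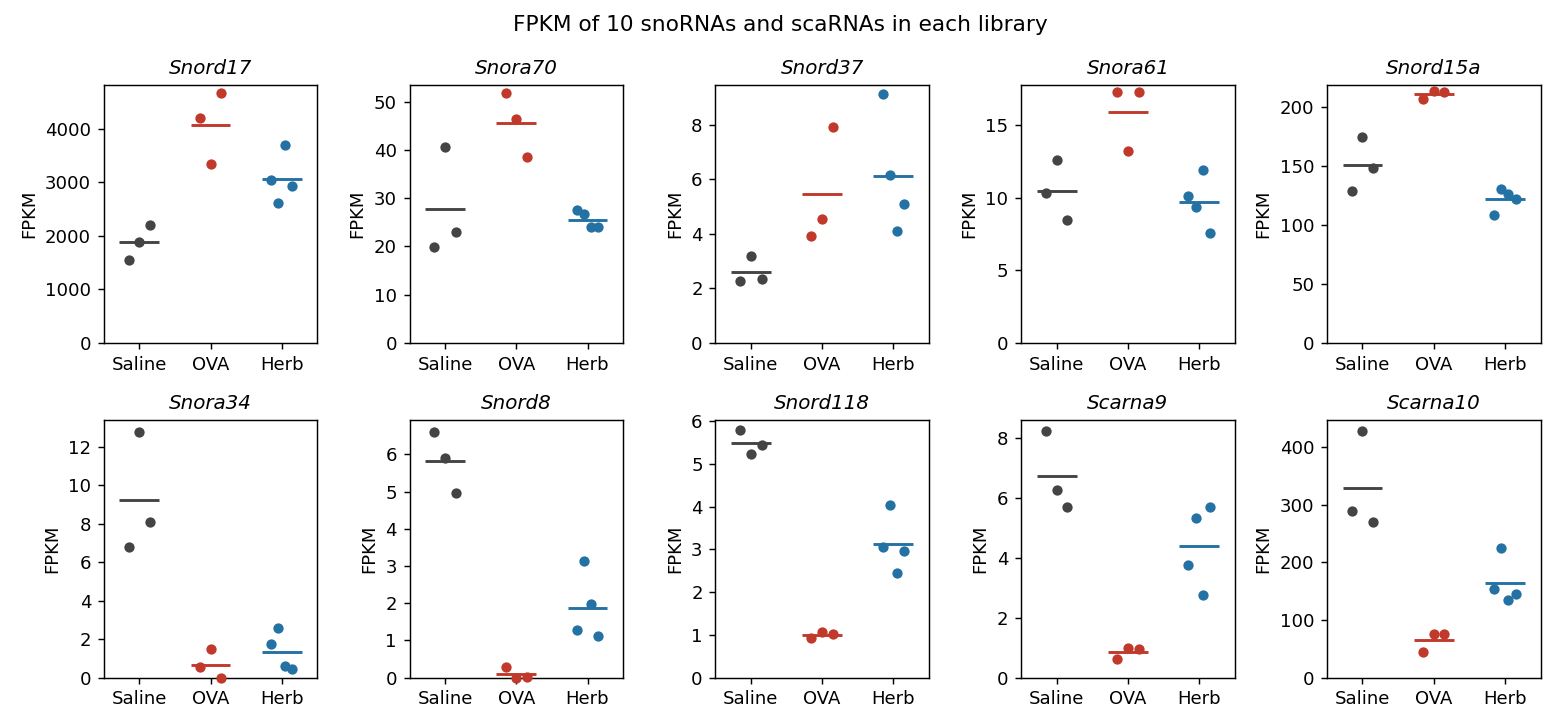
FPKM (y axis, from 0) of 10 members in each library, with points for libraries and lines for group means; Saline n = 3, OVA n = 3, Herb n = 4. The upper row holds members with higher means in OVA than in Saline, such as Snord17, and the lower row members with lower means, such as Snord118, whose groups do not overlap.

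The remaining named calls depended on the scale. Snord22 (U22), in the noncoding host Snhg1, read 338, 580 and 409 FPKM in Saline and 148, 186 and 211 in OVA. The groups did not overlap, and the log2 fold change was -1.26 ± 0.37 (limma adjusted p = 0.0211), but 0.28 at the protein-coding scale (adjusted p = 0.523). Snora74a read 151, 210 and 158 FPKM in Saline and 109, 109 and 105 in OVA. It was called lower at the deposited scale, at -0.67 ± 0.19 (limma adjusted p = 0.0186), and higher at the protein-coding scale, at 0.87 (adjusted p = 0.00718), the only member called in opposite directions. Scarna6 was at -1.54 ± 0.28 (limma adjusted p = 0.0025) and at -0.02 after protein-coding scaling (adjusted p = 0.971). Scarna13 read 191, 274 and 184 FPKM in Saline and 70.6 and 85.4 in OVA, with OVA replicate 3 listed at 0, and it was not called (limma adjusted p = 0.066). Scarna2, which has its own promoter, read 196, 269 and 208 FPKM in Saline and 177, 140 and 189 in OVA. It was not called at the deposited scale, at -0.40 (limma adjusted p = 0.135). At the protein-coding scale it was called higher, at 1.13 (limma adjusted p = 0.00528).

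In the Rpl13a group, 4 box C/D members share the host, a ribosomal protein gene. Snord32a read 4.61, 7.34 and 3.46 FPKM in Saline and 0.46, 0.89 and 0.93 in OVA, and fell by 1.77 on the log2 scale (limma adjusted p = 0.0015). The OVA levels of Snord32a rest on few fragments, so the size of this fall is uncertain. Snord33, Snord34 and Snord35a had log2 fold changes of -0.97, -0.71 and -0.95 and were not called, with adjusted p of 0.0596, 0.173 and 0.119 by limma. Of the members of Gas5, a noncoding growth arrest gene, only Snord47 had a row under the rule: it read 7.89, 12.9 and 6.88 FPKM in Saline, 2.60, 3.42 and 0.79 in OVA, and fell by 1.70 on the log2 scale (limma adjusted p = 0.0069), against -0.49 and no call at the protein-coding scale.

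Ratios within a library are unaffected by scaling between libraries. Those given here were chosen after the values were seen, for their difference, and are a description with no test. The log2 ratio of Snora61 to Snora44 was -0.66, -1.24 and -0.64 in Saline, 1.95, 0.66 and 1.78 in OVA, and 1.15, 0.0018, 1.96 and 1.69 in Herb. Every OVA and Herb library was above every Saline library, a 4.96-fold difference in means for OVA and a 4.13-fold difference for Herb against Saline. Herb and OVA overlapped. Both RNAs overlap annotated exons of Snhg12, so their reads and those of Snhg12 cannot be told apart. The log2 ratio of Snord15a to Snord15b was -3.05 ± 0.16 in Saline (SD, n = 3), -2.47 ± 0.07 in OVA (n = 3) and -2.51 ± 0.21 in Herb (n = 4). It was 1.50-fold higher in OVA than in Saline and 1.46-fold higher in Herb than in Saline. Snord15b overlaps an annotated exon of Rps3 and Snord15a does not, so reads of Snord15b and of Rps3 cannot be told apart.

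Members were then set against their host genes. Of 43 hosts tested as gene sums, 2 were higher and 28 lower in OVA than in Saline (limma), against 3.28% and 57.9% of all 11205 gene sums. At the protein-coding scale 12 hosts were higher and 10 lower, against 37.9% and 8.81% of gene sums. Across 54 members with a tested host, Pearson's r between the change of the member and of its host was -0.17 and Spearman's rho -0.07, a description over genes that share hosts and libraries. For 18 members averaging 5 FPKM or more with both member and host above 0 throughout, the mean log2 ratio of member to host was higher in OVA than in Saline for 13. Another 5 members were left out because the member or its host was listed at 0 in some library. Of the 107 members inside a gene, 82 had a protein-coding host. Protein-coding rows held a mean of 19.9% of the summed FPKM in Saline, 4.13% in OVA and 10.2% in Herb. The part of this shift in the ratios to hosts was not tested, and no ratio between other RNAs was set beside them. The log2 ratio of Snord17 to Snx5 was 6.66 ± 0.25 in Saline (SD, n = 3), 9.89 ± 0.67 in OVA (n = 3) and 7.76 ± 0.65 in Herb (n = 4), with no overlap between any pair of groups. The opposite held for Scarna10 against Ncapd2, a condensin subunit gene: 8.52 ± 0.44 in Saline (n = 3), 5.11 ± 0.11 in OVA (n = 3) and 6.32 ± 0.53 in Herb (n = 4), again without overlap. Scarna10 lies over an annotated exon of Ncapd2, so their reads cannot be told apart.

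**Figure D4:**
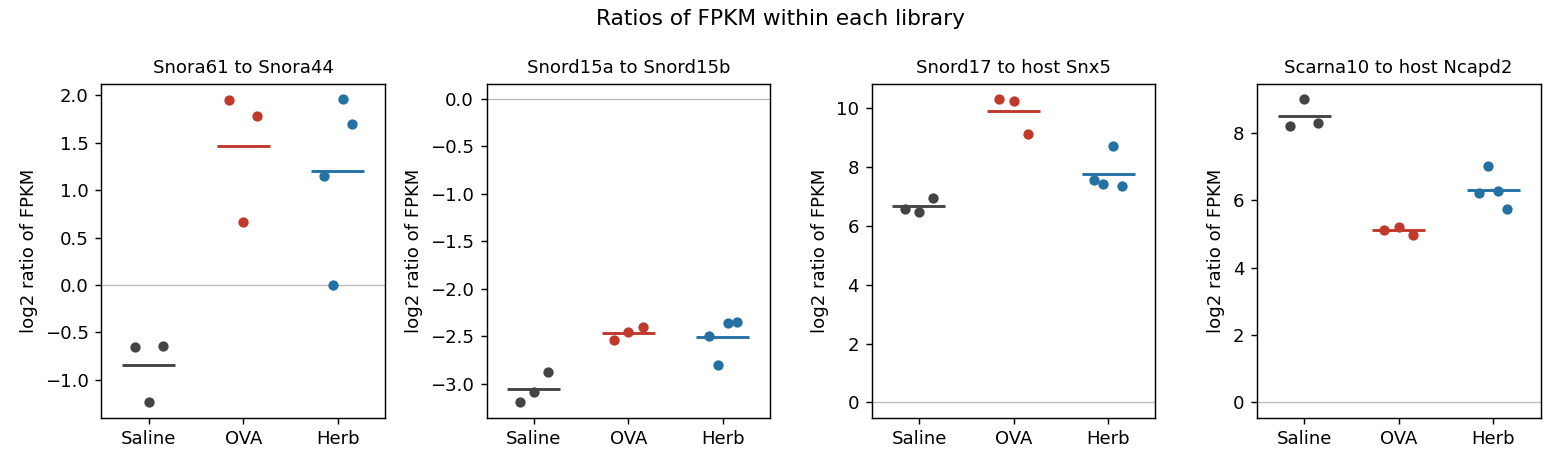
Log2 ratio of FPKM within each library (y axis) for 2 pairs of members that share a host and for 2 members against the gene sum of their host, with points for libraries and lines for group means. The Snora61 to Snora44 ratio lies below 0 in the Saline libraries and above 0 in the OVA and Herb libraries.

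Herb and OVA were compared next, in libraries that share the OVA group with the comparison above. At the deposited scale 7 of 76 members were higher and 4 lower in Herb (limma), against 31.7% and 0.672% of all rows, and the median was 0.22 for members and 0.49 for all rows. By class the median was -0.16 for Snora, with 1 higher and 2 lower, 0.32 for Snord, with 4 higher and 2 lower, and 0.34 for Scarna, with 2 higher and 0 lower. At the protein-coding scale 1 member was higher and 6 lower, against 0.192% and 0.659% of all rows. The class medians there were -0.88 for Snora, with 0 higher and 4 lower, -0.18 for Snord, with 0 higher and 2 lower, and -0.35 for Scarna, with 1 higher and 0 lower, so the sign turned for Snord and Scarna. Without OVA replicate 1 the deposited count fell to 1 higher and 0 lower, without Herb replicate 1 to 5 and 1, and without Herb replicate 2 to 4 and 3.

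The members higher in Herb than in OVA were led by Scarna9, at 1.50 ± 0.22 (limma adjusted p = 0.0153), the only one also called at the protein-coding scale (1.05, adjusted p = 0.0475). Scarna10 was at 1.34 ± 0.29 (adjusted p = 0.0156), Snord8 at 1.34 ± 0.24 (adjusted p = 0.0153) and Snord118 at 1.03 ± 0.14 (adjusted p = 0.0153) in the limma fit, and Snord100, in the ribosomal protein gene Rps12, was at 1.00 ± 0.26 (adjusted p = 0.0222). The 4 members lower in Herb were lower and called at both scales. Snord15a read 207, 213 and 212 FPKM in OVA and 108, 131, 126 and 122 in Herb, without overlap, a log2 fold change of -0.79 ± 0.17 (limma adjusted p = 0.0157). Snord15b was at -0.76 ± 0.21 (adjusted p = 0.0252), Snora70 at -0.81 ± 0.24 (adjusted p = 0.0334) and Snora61 at -0.66 ± 0.20 (adjusted p = 0.033) by limma. Without OVA replicate 1, the call was lost for each of these members but Snord118.

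Herb and Saline were compared last, with libraries that both comparisons above also used. No member was higher and 11 were lower in Herb at the deposited scale (limma), against 1.83% and 6.26% of all rows. The median was -0.44 for members and -0.10 for all rows. By class the lower members were 5 of 30 Snora, 5 of 39 Snord and 1 of 7 Scarna. At the protein-coding scale 7 were higher and 2 lower, against 14.3% and 1.29% of all rows, with 1 Snora higher and 2 lower, 5 Snord higher and 0 lower, and 1 Scarna higher and 0 lower. The 2 lower at both scales were Snora34, at -2.17 ± 0.40 (limma adjusted p = 0.0211), and Snora44, at -1.89 ± 0.42 (adjusted p = 0.0299). Snora44 read 16.3, 29.9 and 13.3 FPKM in Saline and 4.57, 9.38, 3.06 and 2.35 in Herb. The count was 0 without Saline replicate 1, 2 or 3 or Herb replicate 3, 2 without Herb replicate 1, 1 without Herb replicate 4, and 17 without Herb replicate 2.

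Genes for the proteins that bind, assemble or release these RNAs were lower in OVA than in Saline at a share near that of all gene sums at the deposited scale, and the direction of many was turned by the protein-coding scale. Of 26 listed, 24 were tested as gene sums, and limma called 0 higher and 16 lower against Saline, against the 3.28% and 57.9% above, and 9 were higher and 2 lower at the protein-coding scale, against the 37.9% and 8.81% above. The 2 lower at both were Nop10, of the H/ACA particle, at -2.55 ± 0.26 (adjusted p = 0.000149), and Nhp2l1, a protein that binds the C/D RNA directly, at -2.13 ± 0.20 (adjusted p = 0.000145) by limma. Dkc1, the pseudouridine synthase, was at -1.09 ± 0.18 (limma adjusted p = 0.000725) and at -0.03 after protein-coding scaling. Fbl was listed at 0 in the Saline libraries, in OVA replicate 2 and in Herb replicates 1 and 3, and was not called (limma adjusted p = 0.192). In Herb against OVA 10 were higher and 0 lower, against 44.0% and 0.446% of gene sums, and in Herb against Saline 0 were higher and 8 lower, against 3.32% and 22.7%. At the protein-coding scale these counts were 0 higher and 1 lower, against 0.589% and 4.70%, and 1 higher and 1 lower, against 18.6% and 2.85%. Without OVA replicate 1 the count in Herb against OVA was 3.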

How the data were processed

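Lung RNA-seq of 10 libraries (Saline 3, OVA 3, Herb 4) was analysed from the 1 deposited table of FPKM values per transcript row. Per the labels, the authors trimmed reads with cutadapt 1.10, aligned them to mm10 with HISAT2, and quantified them with StringTie 1.3.3b. The labels and the study's methods name different RNA extraction and library kits, and whether counting used strand is not given in the sources used here. Rows averaging 1 FPKM or more (30194 of 66548) were fitted as log2(FPKM + 1) in limma 3.58.1 (R 4.3.3) with 1 mean per group, all 10 libraries and an intensity trend, and p-values were Benjamini-Hochberg adjusted over all rows. Because 1 is added, changes of low rows come out too small on it. Gene sums were fitted the same way (11205 genes). Members, hosts and sequences were placed with RefSeq and GENCODE vM21 (GRCm38), and all 150 rows matched RefSeq by accession. Ratios within a library were chosen after the values were seen and were not tested. P-values measure the spread between libraries, which nothing in the labels states to be separate animals. Depth limits precision as given beside the low members.

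Members and gene lists were chosen with earlier results of these data known. Named members were the 5 largest changes each way per comparison among calls, the 5 highest per class, and fixed members by role or host. Alternatives were 3 other scalings, 2 pseudocounts, 2 filters, no trend, only the groups compared, a replicate block, and each library left out. Replicate numbers did not pair libraries: correlations of deviations were -0.03 to 0.07 for equal numbers and -0.07 to 0.12 for others.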

Additional observations from a re-analysis of the deposited data

Results flagged for a closer look

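Snord15b in Herb replicate 2 read 915 FPKM while the other Herb libraries read 610, 650 and 622, a gap beyond Dixon's critical value for 4 samples. It was the only such value among the 29 named members tested in this way, and chance alone passes about 1 in 20 such groups.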

How the results depend on the processing

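Members called in OVA vs Saline numbered 32 as reported and 18 (11 higher, 7 lower) both with scaling to the 75th percentile and with quantile normalization, 9 where the mean had to reach 10 FPKM, which left 20 members to test, and 19 to 34 with a library left out, the lowest without OVA replicate 1. In Herb vs OVA the count was 11, and 5 (75th percentile), 2 (quantile), 7 (protein-coding sum), 6 of 20 (mean from 10 FPKM) and 1 to 13 with a library left out. In Herb vs Saline it was 11, and 5 (75th percentile), 2 (quantile), 3 (pseudocount 0.1), 6 (no filter) and 0 to 17 with a library left out. The share of all rows called is given above only at the deposited and protein-coding scales. For the other alternatives, here and above, it is not given, so their counts cannot be read as results about the members. The median log2 fold change of members in OVA vs Saline was -0.71, and -0.0896 (75th percentile), -0.10 (quantile), 0.33 (protein-coding sum), -1.004 (pseudocount 0.1), -0.24 (pseudocount 10), -0.42 (no filter), -0.32 (mean from 10 FPKM, against -1.55 for all rows so filtered) and -0.76 to -0.55 with a library left out. In Herb vs OVA it was 0.22, and -0.18 (75th percentile), -0.22 (quantile), -0.37 (protein-coding sum), -0.42 (mean from 10 FPKM, against 0.93 for all rows so filtered) and 0.10 to 0.34 with a library left out. In Herb vs Saline it was -0.44, and 0.0873 (protein-coding sum), -0.18 (pseudocount 10) and -0.56 to -0.29 with a library left out. Snora74a in OVA vs Saline turned to 0.24 (75th percentile), 0.14 (quantile) and 0.87 (protein-coding sum), Snord22 to 0.28 and Snord100 to 0.19 (both protein-coding sum). The cause was not tested.

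The snoRNP protein genes, for which the alternatives were added after seeing the data, numbered 16 called in OVA vs Saline, and 8 (75th percentile), 9 (quantile) and 16 to 18 with a library left out. In Herb vs OVA they numbered 10, and 0 (75th percentile), 0 (quantile), 1 (protein-coding sum), 6 (pseudocount 10), 6 (no filter) and 3 to 9 with a library left out. In Herb vs Saline they numbered 8, and 2 (75th percentile), 2 (quantile), 2 (protein-coding sum), 5 (no filter) and 2 to 9 with a library left out. No gene of this list averaged 10 FPKM, so that filter gave no value. With the replicate block the members called were 28, 9 and 3 in the 3 comparisons in the order above, and the protein genes called fell to 6 in Herb vs OVA and 2 in Herb vs Saline. The share of all rows or gene sums called with the replicate block, or of gene sums under the other alternatives, is given only at the protein-coding scale. The other counts cannot be read as results about these genes. Members near 1 FPKM rest on a few fragments.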
